A study of Mus musculus with 12 samples.

Results

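The miR-193 and miR-365 clusters were examined through the 3 mature miRNAs that carry their main arms, miR-193a-3p, miR-193b-3p and miR-365-3p, out of 1881 miRNAs on a mouse miRNA array. They are selected by name, as the miR-193 pair, already known from these arrays to be faint, and the miRNA encoded beside each of them. The arrays held RNA of heart muscle from 12 male C57BL6/J mice aged 5 months, with 1 array per mouse and 3 mice in each of 4 groups. These were control mice (C), control mice given the monoamine oxidase (MAO) inhibitor pargyline (C+P), mice made diabetic with streptozotocin, a toxin of pancreatic beta cells (D), and diabetic mice given pargyline (D+P). Streptozotocin was given on 5 days and pargyline over 12 weeks, each at a daily dose of 50 mg/kg. The diabetes is thus a toxin model of insulin loss, the tissue is whole heart muscle with all its cell types, and pargyline acts in the whole animal. In such tissue, fewer cells that hold a miRNA and less of it per cell cannot be told apart.

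MiRNAs are short RNAs that guide a silencing complex to messenger RNAs, mainly through the seed, bases 2 to 8 from the 5' end. The miR-193 and miR-365 genes lie in pairs on separate chromosomes, and each pair is generally taken to be cut from a shared primary transcript. The miR-193b and miR-365 pair is best known for promoting brown fat differentiation and for restraining cell proliferation. Because the miR-365 hairpins of both pairs give the same mature RNA, the signal of miR-365-3p is the sum of both loci.

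The mature sequences are shown first, because shared seeds and shared bases decide which of these signals can be told apart. They were taken from RefSeq (GRCm38.p6), with the seed in capitals:
mmu-miR-193a-3p: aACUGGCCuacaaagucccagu
mmu-miR-193b-3p: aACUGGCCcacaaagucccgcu
mmu-miR-365-3p: uAAUGCCCcuaaaaauccuuau

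MiR-193a-3p lies at chr11:79712009-79712030 and miR-193b-3p at chr16:13449570-13449591, both on the plus strand. They have the same base at 19 of 22 positions and differ by U9C, A20G and G21C, with positions counted from the 5' end and the miR-193a-3p base first. All these differences are outside the seed, and no other mature mouse miRNA in the table had the seed ACUGGCC. Part of the signal of each could come from the other, which was not tested. The seed AAUGCCC belonged to miR-365-3p alone, whose sequence was identical at chr11:79726467-79726488 (Mir365-2) and chr16:13453895-13453916 (Mir365-1), again on the plus strand. Between the hairpins of Mir193a and Mir365-2 lie 14365 bases, and neither hairpin falls inside another annotated gene. Mir193b and Mir365-1 are closer, with 4238 bases between them, and both lie within the span of the long noncoding RNA genes Gm32817 and Gm53058.

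The study also built a reporter from a fragment of Grb10, which encodes an adaptor protein that dampens insulin receptor signaling. That fragment shows what the shared seed means for a target, since its 374 bases hold 1 match to the miR-193 seed (GGCCAGT, searched on the strand as given), at position 182 of the fragment. The match is in capitals:
Grb10 reporter fragment: tttgtaaagcaGGCCAGTggcaa

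Both miR-193 seeds pair with these same letters. The control fragment of 224 bases had 0 matches, and the miR-365 seed match GGGCATT was found in neither fragment. GGCCAGT occurred in 2.26% of 32851 mouse promoter windows of 300 bases on the listed strand. A match is a description of the letters, and the arrays do not measure targeting.

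All values below come from the scanner signal (intensity) of each miRNA and a detection flag, which was set where the signal was at least 3 times its error. The arrays differed in brightness by group. A C array detected 144 to 163 miRNAs, a D array 165 to 203, a D+P array 187 to 218 and a C+P array 214 to 253. Each of the 128 miRNAs detected on all 12 arrays was compared by its group means of log2 signal. The median of these differences was 1.70-fold higher in D than in C and 2.22-fold higher in C+P than in C. Slide 1 carried C and D, and slide 2 carried both pargyline groups, which means that an effect of the slide and one of pargyline cannot be told apart in a direct comparison. On both slides the mice without diabetes were in array row 1 and the diabetic mice in row 2, so row and diabetes cannot be told apart either. As for the tissue, 4 of 5 cardiomyocyte miRNAs were detected on all 12 arrays (miR-208b-3p on 0), and the liver miRNA miR-122-5p and the neuronal miRNA miR-124-3p were detected on 0.

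None of the 3 miRNAs was detected on every array. MiR-193a-3p was detected on 8 arrays, miR-193b-3p on 6 and miR-365-3p on 11. The other arms of the same hairpins, miR-193a-5p, miR-193b-5p, miR-365-1-5p and miR-365-2-5p, were detected on 0 of 12 arrays.

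MiR-193a-3p was undetected on all 3 C arrays. Its scanner signal was 4.26, 4.66 and 11.1 in C+P, and 5.00, 4.35 and 4.65 in D. In D+P it was undetected on replicate 1 and reached 3.79 and 4.56 on replicates 2 and 3. Outside C, therefore, its signals fell in a narrow band, with C+P replicate 3, the brightest array, above the rest.

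MiR-193b-3p was also undetected on all 3 C arrays and on C+P replicates 1 and 2, with 8.49 on C+P replicate 3. Its signals in D were 10.5, 8.06 and 4.47, and in D+P it was undetected on replicate 1 and reached 4.09 and 4.31 on replicates 2 and 3. The scanner signals of the D arrays were all above those of the D+P arrays, with 4.47 next to 4.31 at the closest point, while C+P replicate 3 lay within the D range.

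MiR-365-3p, the brightest of the 3, had signals of 3.55 and 10.9 on C replicates 1 and 2 and was undetected on C replicate 3. It reached 19.7, 20.7 and 35.7 in C+P and 22.2, 18.5 and 16.7 in D. In D+P it spread widely, at 3.38, 12.2 and 21.3. Before any normalization, every D and C+P array was above every C array, and D+P overlapped with all other groups.

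**Figure D1:**
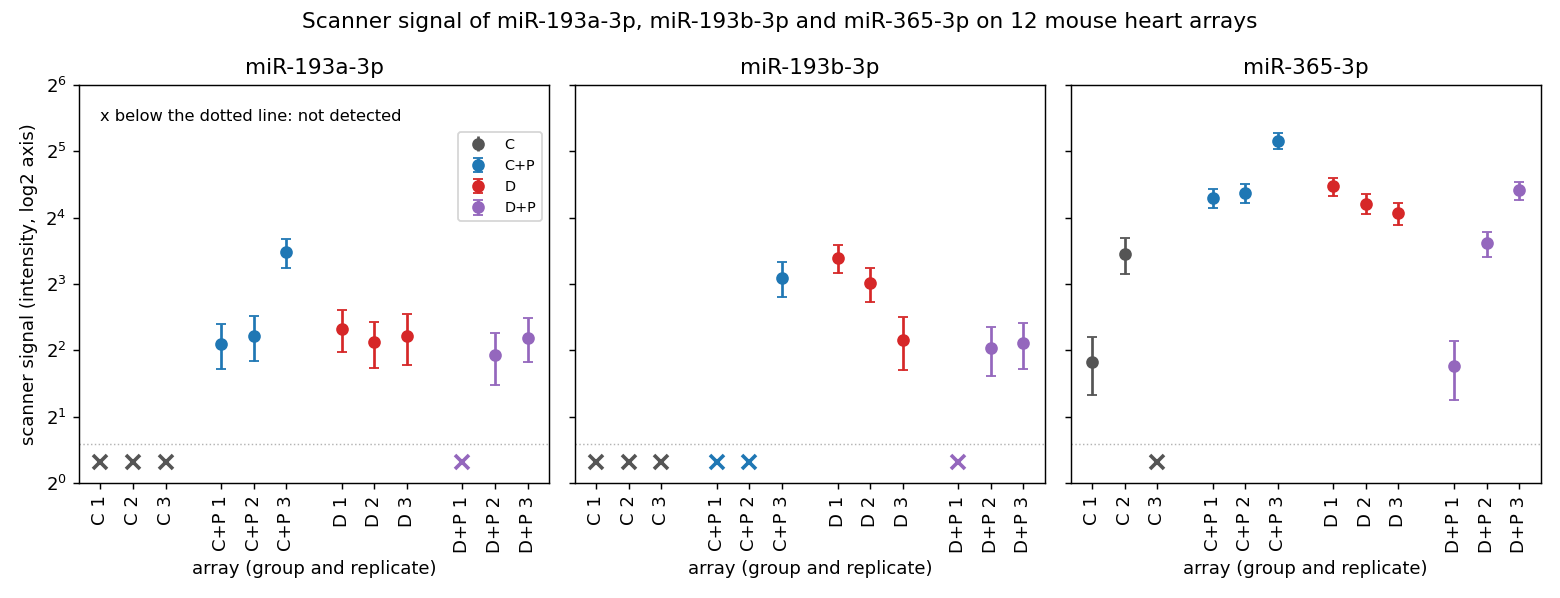
Scanner signal (intensity, log2 axis) of each miRNA on the 12 arrays, coloured by group, with bars of the scanner's error and crosses for undetected values. The C arrays carry crosses for both miR-193 miRNAs, and miR-365-3p is lowest or undetected on C replicates 1 and 3 and on D+P replicate 1.

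The comparison of the cluster mates asks whether the brighter miR-365-3p was low where the miR-193 pair was undetected. On 4 arrays neither miR-193 miRNA was detected, the 3 C arrays and D+P replicate 1. MiR-365-3p was undetected or at its lowest on 3 of these, C replicate 3, C replicate 1 (3.55) and D+P replicate 1 (3.38). On the other, C replicate 2, it was 10.9, above 20.3% of the 128 miRNAs detected everywhere, a rank that lies within those of C+P. On C+P replicates 1 and 2, where miR-193b-3p alone was undetected, miR-365-3p was as bright as in D.

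Brightness moved with this pattern. The 4 arrays without either miR-193 miRNA had the lowest summed signals, 27107 to 35028 for the C arrays and 39661 for D+P replicate 1, and every other array was at 48104 or above. By other measures the order was less clear. C replicate 1 and D replicate 3 detected 163 and 165 miRNAs, yet miR-365-3p was 3.55 on the first and 16.7 on the second, and both miR-193 miRNAs were detected only on the second. D+P replicate 1 detected 187 miRNAs, against 179 and 165 on D replicates 2 and 3, and the median signal of the 128 was 40.8 on it, against 51.2 and 39.6 on those. C+P replicates 1 and 2 detected 214 and 218 miRNAs, more than any D array, and lacked miR-193b-3p. The part of brightness was not tested.

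**Figure D2:**
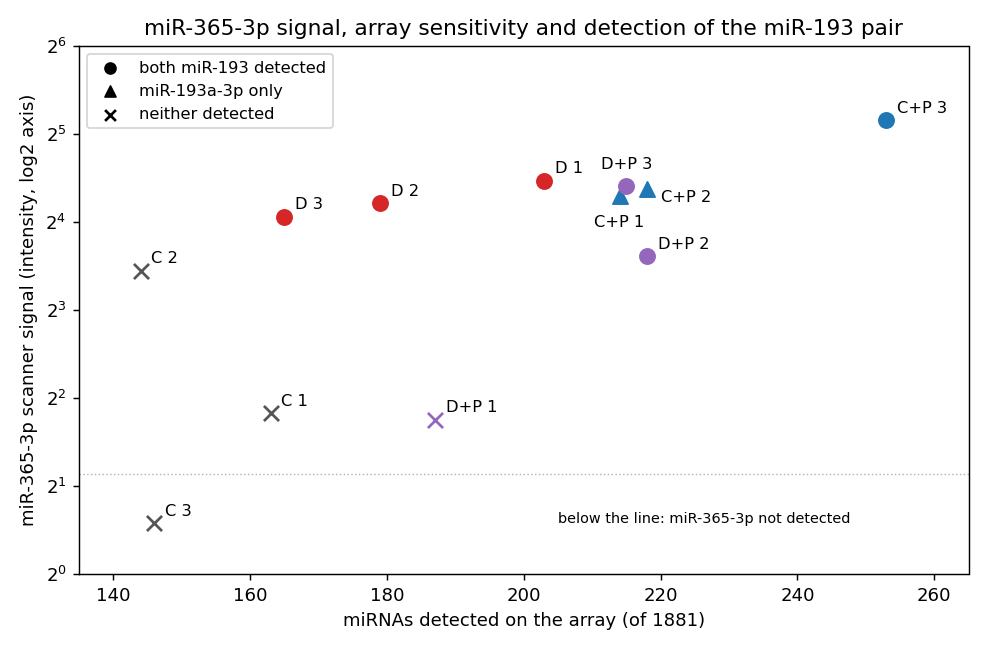
MiR-365-3p scanner signal (log2 axis) against the number of miRNAs detected on each array, with symbols for detection of the miR-193 pair. Neither miR-193 miRNA was detected on the 3 C arrays and D+P replicate 1, on 3 of which miR-365-3p was at its lowest or undetected, while C replicate 2 at 10.9 is near D+P replicate 2 at 12.2.

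The ratio of 2 signals within an array cancels a brightness that acts on all of its signals alike. On the 8 arrays with both detected, the signal of miR-365-3p over miR-193a-3p ranged from 3.21 to 4.67, with a median of 4.34. Its ratio to miR-193b-3p on 6 arrays was wider, from 2.11 to 4.94, with a median of 3.36. MiR-193b-3p over miR-193a-3p was 2.10 and 1.85 on D replicates 1 and 2 and 0.764 to 1.08 on the other 4 arrays. The signals of different probes do not give relative amounts, so these ratios are compared only between arrays.

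Dividing the miR-365-3p signal of an array by these ranges gives the signal that an undetected miR-193 miRNA would have had at the same ratio. For miR-193a-3p it was 0.761 to 1.11 on C replicate 1, 2.34 to 3.40 on C replicate 2 and 0.723 to 1.05 on D+P replicate 1. All are under 3.79, the lowest signal at which miR-193a-3p was detected on any array. For miR-193b-3p it was 0.720 to 1.69 on C replicate 1 and 0.684 to 1.60 on D+P replicate 1, both under 4.09, its lowest detected signal. It was 2.21 to 5.18 on C replicate 2, 3.98 to 9.33 on C+P replicate 1 and 4.20 to 9.84 on C+P replicate 2. At a constant ratio to miR-365-3p, miR-193a-3p would thus have been under its lowest detected signal on each array where this could be computed, whereas miR-193b-3p on C+P replicate 2 would have been above its own over the whole range. On C replicate 3 miR-365-3p itself was undetected. The ratios come only from arrays that detected the miR-193 miRNA, and its lowest detected signal is not a detection limit. On C replicate 2 the lowest detected signal of any miRNA was 1.73. The comparison therefore cannot show whether either miRNA would have been detected on a given array.

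The ranks within an array gave a comparison that needs no normalization. MiR-365-3p was brighter than 32, 33 and 32 of the 128 miRNAs on the D arrays. It was brighter than 27, 25 and 27 on the C+P arrays and 2, 7 and 26 on the D+P arrays, and than 0 and 26 on the C arrays that detected it. The D arrays held the highest ranks of all, although the ratio of miR-365-3p to the median of the 128 was 0.362 to 0.422 in D, against 0.374 to 0.404 in C+P and 0.407 on C replicate 2, and so overlapped between them. MiR-193b-3p was brighter than 9, 8 and 4 of the 128 in D and than 0 on the 3 other arrays that detected it. MiR-193a-3p was brighter than 1, 2 and 5 in D and than 0 elsewhere.

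**Figure D3:**
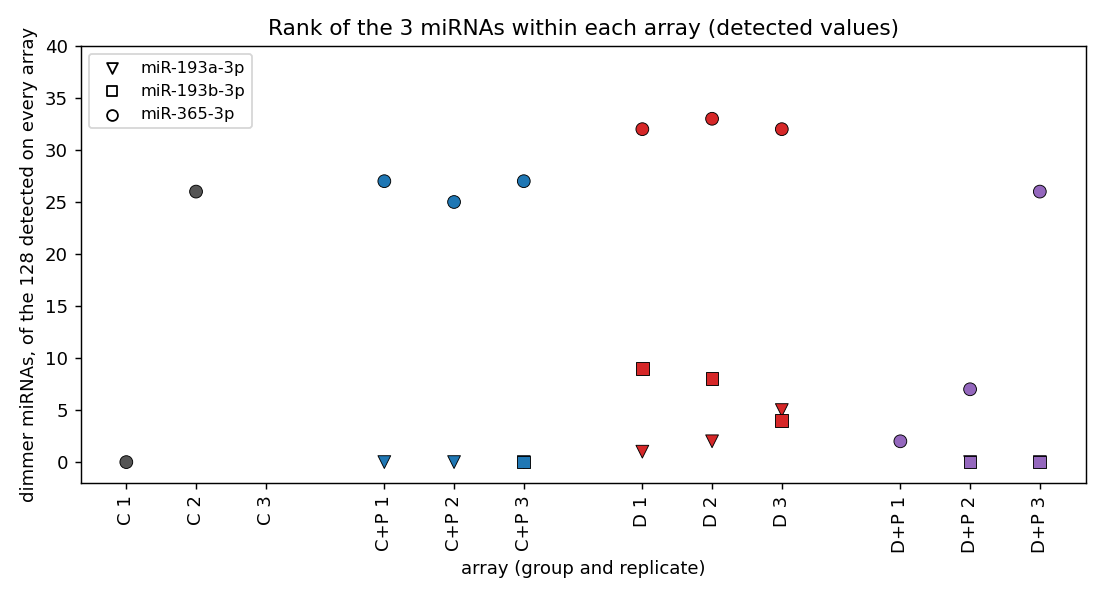
Number of the 128 miRNAs detected on every array that were dimmer than each of the 3 miRNAs, by array and group, for detected values only. MiR-365-3p stands at 32 or 33 on the D arrays and at 27 or below on all others, and only the D arrays lift either miR-193 miRNA above 0.

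Not being detected in C and being detected in D was a pattern of few of the 1881 miRNAs, but 1611 of them (85.6%) were detected on no array and could not show it. Of 1881 miRNAs, 19 (1.01%) were undetected on 3 of 3 C arrays and detected on 3 of 3 D arrays, the miR-193 pair among them, and 1 (0.0532%) showed the opposite. For C+P in place of D the number was 43 (2.29%), miR-193a-3p among them. Of the 99 miRNAs undetected in C and detected on at least 1 other array, 19.2% were detected on 3 of 3 D arrays. Of the 159 miRNAs detected on all D arrays, 19 (11.9%) were, like the miR-193 pair, undetected on D+P replicate 1 and detected on replicates 2 and 3. The C arrays were the dimmest, and the part of brightness in these flags was not tested.

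The flags stood close to the limit. With a signal of at least 4 times its error, miR-193a-3p was detected on 0 arrays of C, 3 of C+P, 2 of D and 1 of D+P, and miR-193b-3p on 0, 1, 2 and 1 in that order. With at least 5 times, miR-193a-3p remained on 1 array, of C+P, and on 0 D arrays, miR-193b-3p on 1 C+P and 2 D arrays, and miR-365-3p on 1, 3, 3 and 2 arrays of the 4 groups.

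For the tests between groups, undetected values were set to the lowest detected signal of their array (1.34 to 2.24), and the 209 miRNAs that some group detected on each of its 3 arrays were normalized by cyclic loess and fitted with limma, with Benjamini-Hochberg adjustment over all 209. Values are log2 changes after this normalization, which removes what all miRNAs of an array share. With 3 arrays against 3, an exact permutation test of a single miRNA cannot go below p = 0.1.

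The comparison of D with C asks what diabetes changed. Both miR-193 miRNAs were above the values given to the undetected C arrays, and miR-365-3p had an estimate of similar size that did not pass the test. MiR-193b-3p was 1.44 higher in D (SE 0.35, limma adjusted p = 0.0114), with normalized log2 levels of 3.04 ± 0.42 in D and 1.60 ± 0.09 in C (SD, n = 3). MiR-193a-3p was 0.76 higher (SE 0.20, limma adjusted p = 0.0155), at 2.38 ± 0.23 and 1.61 ± 0.10. These are 2.71-fold and 1.70-fold against the values given to the undetected C arrays, and neither is a lower bound, since those values were under any signal at which either miRNA was seen. The C levels and their SD are likewise those of the values given, not of a measured miRNA. MiR-193b-3p was among the 209 miRNAs through D alone, the only group to detect it on all 3 arrays. Its test is therefore not independent of that filter. When undetected arrays were instead set to each miRNA's own lowest detected signal, the difference was 0.08 for miR-193a-3p (limma adjusted p = 0.676) and 0.56 for miR-193b-3p (limma adjusted p = 0.0480), so the size for miR-193a-3p rests on the value given to the C arrays. The call of miR-193a-3p was also lost with 75th percentile scaling (0.41, limma adjusted p = 0.182), and those of both miRNAs with the authors' values (limma adjusted p = 0.398 for miR-193a-3p and 0.596 for miR-193b-3p) and with all 1881 miRNAs fitted (0.215 and 0.193).

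MiR-365-3p was at 2.22, 4.44 and 1.73 on the normalized log2 scale in C and at 4.00, 4.14 and 4.15 in D. The D arrays were tight, and C replicate 2 was above all of them. The change was 1.30 (SE 0.61, 95% interval -0.05 to 2.66, limma adjusted p = 0.0995). Without C replicate 2 it was 2.11 (limma adjusted p = 0.0126). Without C replicate 3, where miR-365-3p was undetected, it was 0.78 (limma adjusted p = 0.318), and without C replicate 1 it was 1.04 (limma adjusted p = 0.255). Without D replicate 2 the change of miR-193a-3p no longer passed (0.74, limma adjusted p = 0.0516). Of the 209 miRNAs, 46.9% passed in this comparison and 24.4% were higher in D, against 2 of the 3 miRNAs here.

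The comparison of C+P with C asks what pargyline changed without diabetes, and none of the 3 passed, where 18.2% of the 209 did and 8.13% were higher in C+P. MiR-193a-3p differed by 0.10 (95% interval -0.35 to 0.55), with the 3 C+P arrays that detected it set against fill-in values on all 3 C arrays. Neither this difference nor its interval is therefore a measurement of a change from C. With undetected values at its own lowest detected signal the difference was -0.18. MiR-193b-3p was undetected on 5 of these 6 arrays, so its fitted difference is mostly one between fill-in values and is not a measurement of the miRNA. MiR-365-3p was 3.94, 3.83 and 3.98 in C+P and differed from C by 1.12 (SE 0.61, limma adjusted p = 0.187). Without C replicate 2 that difference was 1.91 and passed (limma adjusted p = 0.0453), and without C replicate 3 it was 0.64 (limma adjusted p = 0.497).

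The comparison of D+P with D asks what pargyline changed in diabetic hearts. Both miR-193 miRNAs fell, with changes of -1.84 for miR-193b-3p (SE 0.35, limma adjusted p = 0.00667) and -1.18 for miR-193a-3p (SE 0.20, limma adjusted p = 0.00488). As MiR-193b-3p was among the 209 through D alone, its test here is not independent of that filter either. MiR-193b-3p was 0.76, 1.38 and 1.47 on the normalized log2 scale in D+P against 3.24, 3.32 and 2.56 in D, and the groups did not overlap. MiR-193a-3p was 0.77, 1.27 and 1.54 against 2.14, 2.40 and 2.59, also without overlap. With undetected arrays at each miRNA's own lowest detected signal the changes were smaller and still passed, at -1.12 (limma adjusted p = 0.00442) and -0.54 (limma adjusted p = 0.0119). Of the 209 miRNAs, 47.8% passed and 23.4% were lower in D+P.

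The miR-193b-3p call was lost without normalization (limma adjusted p = 0.158), with the authors' values (0.592), with all 1881 miRNAs fitted (0.130) and with the methods' test per miRNA (Benjamini-Hochberg adjusted p = 0.187). On the scanner scale the miR-193a-3p signals of D and D+P overlapped, at 4.35 to 5.00 and 3.79 to 4.56 where detected. Its change passed neither without normalization (-0.61, limma adjusted p = 0.289) nor with scaling to the 75th percentile (-0.35, limma adjusted p = 0.267). The call was also lost with undetected values missing (-0.50, limma adjusted p = 0.0718), all 1881 miRNAs fitted (0.0744) or only the 2 groups compared (0.0703). The methods' test per miRNA gave a Benjamini-Hochberg adjusted p = 0.187. It was kept with, among others, quantile normalization (-0.88, limma adjusted p = 0.0117) and the authors' values (-2.98, limma adjusted p = 0.0206). MiR-365-3p differed by -1.17 (SE 0.61, 95% interval -2.52 to 0.19, limma adjusted p = 0.124), with 1.91, 3.07 and 3.81 in D+P. Its groups did not overlap after cyclic loess, and without D+P replicate 3 the change was -1.62 (limma adjusted p = 0.0465), or without C replicate 2, which alters only the shared spread and the normalization, -1.18 (limma adjusted p = 0.0365). Without D+P replicate 1 the change was -0.58 (limma adjusted p = 0.464).

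The comparison of D+P with C+P asks what diabetes changed under pargyline, and none of the 3 passed, where 5.74% of the 209 did. The log2 differences were -0.52 for miR-193a-3p (95% interval -0.97 to -0.07, limma adjusted p = 0.121), 0.60 for miR-193b-3p (-0.17 to 1.36, limma adjusted p = 0.223) and -0.98 for miR-365-3p (-2.34 to 0.37, limma adjusted p = 0.249). Without D+P replicate 3, miR-193a-3p passed at -0.69 (limma adjusted p = 0.0221).

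The interaction asks whether pargyline acted differently in diabetic and in control hearts. It was -1.28 for miR-193a-3p (SE 0.29, limma adjusted p = 0.00707), -2.29 for miR-365-3p (SE 0.87, limma adjusted p = 0.0408) and -0.84 for miR-193b-3p (SE 0.49, limma adjusted p = 0.155). For both miR-193 miRNAs the C levels used in it are fill-in values, not measurements. Of the 209 miRNAs, 58.9% passed, 29.7% above 0 and 29.2% below. The value of miR-365-3p lost its call in 10 of 12 fits that each left out 1 array, with values of -3.09 (without C replicate 2) to -1.73 (without D+P replicate 1), and that of miR-193a-3p was -0.36 (limma adjusted p = 0.117) with undetected values at its own lowest detected signal.

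**Figure D4:**
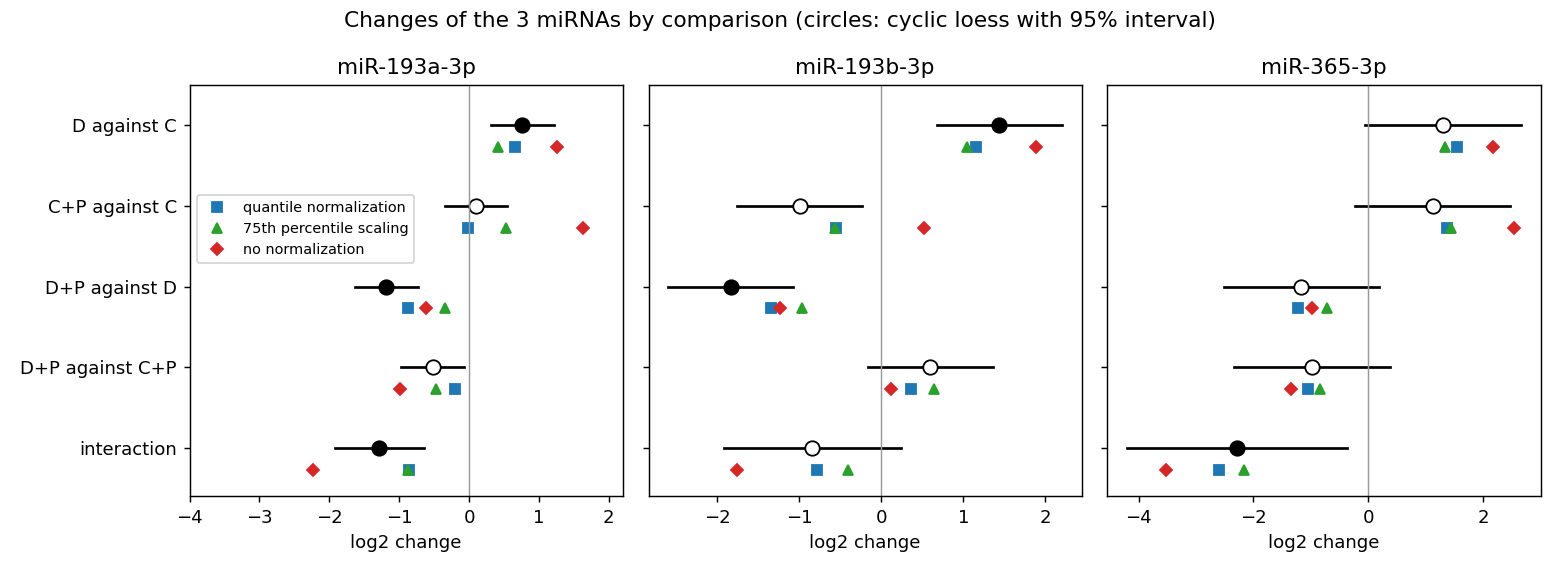
Log2 change of each miRNA in each comparison, as circles with 95% intervals after cyclic loess (filled where the adjusted p passed 0.05), and as small symbols under 3 other scalings. MiR-193b-3p is higher in D than in C and lower in D+P than in D under each scaling shown. For D against C this is no support, since its C arrays all hold fill-in values, set under every detected signal of this miRNA. MiR-193b-3p also entered the fit through D alone, so neither comparison is independent of the detection filter. The intervals of miR-365-3p cross 0 in all comparisons but the interaction.

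The members were then compared across arrays. Over the 8 arrays with both detected, miR-365-3p and miR-193a-3p correlated after cyclic loess with Pearson's r = 0.80 (exact permutation p = 0.00236, adjusted over 3 pairs p = 0.00707) and Spearman's rho = 1 (exact permutation p = 4.96e-05, the smallest these arrays can give, adjusted p = 0.000149). Without the 2 arrays farthest from the median of miR-365-3p, D+P replicate 2 and D replicate 3, r was 0.95. The r did not pass under 75th percentile scaling (0.68, exact permutation p = 0.0608, adjusted 0.182) or quantile normalization (0.61, exact permutation p = 0.125, adjusted 0.125), while rho passed under both, at 0.90 (exact permutation p = 0.00456, adjusted 0.0137) and 0.99 (exact permutation p = 0.000198, adjusted 0.000595). Without normalization r was 0.88 (exact permutation p = 0.00372, adjusted 0.0112), and 0.41 without the 2 farthest arrays, so that r rests on them. In that setting rho was 0.79 (exact permutation p = 0.0279, adjusted 0.0838) and did not pass.

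Over 6 arrays, miR-365-3p and miR-193b-3p gave r = 0.62 (exact permutation p = 0.139, adjusted 0.139, rho = 0.77, exact permutation p = 0.103, adjusted 0.103, and r = 0.44 without the 2 farthest arrays). MiR-193a-3p and miR-193b-3p gave r = 0.79 (exact permutation p = 0.0903, adjusted 0.135, rho = 0.77, exact permutation p = 0.103, adjusted 0.103, and r = 0.90 without the 2 farthest). Each slide held fewer than 6 of these arrays, too few for a value within a slide, and the arrays share group and brightness.

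Over all 12 arrays of the normalized table, undetected values included, the cluster mates were not the miRNAs most like each other. As a description, r between miR-365-3p and miR-193a-3p was 0.63, and 37 of 208 other miRNAs were more like miR-365-3p than miR-193a-3p was. For miR-365-3p and miR-193b-3p r was 0.27, with 91 of 208 more like miR-365-3p. The miR-193 pair gave r = 0.70, and 9 of 208 miRNAs were more like miR-193b-3p than miR-193a-3p was.

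The miRNAs most like miR-365-3p over 12 arrays were miR-199a-5p (r = 0.79), miR-15a-5p (0.78) and miR-16-5p (0.76). The detection flags of miR-193a-3p were shared exactly by 13 other miRNAs, of which miR-301a-3p (r = 0.97), miR-194-5p (0.94) and miR-192-5p (0.93) were closest. MiRNAs undetected on the same array share its fill-in value before normalization, so r among miRNAs chosen by flags is partly set by that choice. The flags of miR-193b-3p were shared exactly by 0, and miR-10b-5p came nearest, with 11 of 12 flags and r = 0.64, followed by miR-192-5p (10 flags, r = 0.82) and miR-194-5p (10 flags, r = 0.78).

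Other miRNAs known for a part in brown adipocytes formed a list of 13 (miR-133a-3p and miR-155-5p, known to restrain brown fat, and miR-455, miR-182-5p, miR-203-3p and miR-196a-5p, known to promote it, among them). Of these, 7 were detected on all 12 arrays and 5 on none, namely miR-455-3p, miR-455-5p, miR-182-5p, miR-203-3p and miR-196a-5p. Of the 8 in the fit, 2 were higher in D than in C, where 24.4% of the 209 were, with a list median of 0.28 against -0.03 over all 209. These were miR-30b-5p (0.70, limma adjusted p = 0.0456) and miR-34a-5p (0.57, limma adjusted p = 0.0236). In D+P against D, 2 of 8 were lower, miR-34a-5p (-0.59, limma adjusted p = 0.0230) and miR-106b-5p (-0.36, limma adjusted p = 0.0358), with medians of -0.35 for the list and -0.11 for all, where 23.4% of the 209 were lower. None of the 8 passed in C+P against C or D+P against C+P, where 18.2% and 5.74% of the 209 did. In the interaction 3 of 8 passed and were below 0, where 29.2% of the 209 were, namely miR-30b-5p (-1.05), miR-30c-5p (-0.67) and miR-34a-5p (-0.97).

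Markers of cell types moved between the groups as well. The cardiomyocyte miRNAs made up 6.75% to 7.04% of the detected signal on the C arrays, 9.73% to 12.8% on the D arrays, 10.71% to 13.03% on the C+P arrays and 4.26% to 10.69% on the D+P arrays. Within that list miR-1a-3p was higher in D than in C (1.31, limma adjusted p = 0.00612), miR-208a-3p was lower (-0.73, limma adjusted p = 0.0155), and miR-133a-3p and miR-499-5p differed by 0.0033 and 0.08 and did not pass. Of the 3 red cell miRNAs, miR-144-3p was lower in D (-0.54, limma adjusted p = 0.0456), and the list made up 1.42% to 1.88% of the detected signal on the C arrays, 1.58% to 1.76% on the D arrays, 1.22% to 1.71% on the C+P arrays and 0.922% to 1.58% on the D+P arrays. The leukocyte miRNAs, all 3 of which are on the array, made up 0.0450% to 0.0738% on the C arrays, 0.0799% to 0.0869% on the D arrays, 0.114% to 0.135% on the C+P arrays and 0.0262% to 0.0820% on the D+P arrays. The fibroblast miRNAs miR-199a-3p and miR-214-3p made up 0.0593% to 0.0727% on the C arrays, 0.0953% to 0.138% on the D arrays, 0.0896% to 0.140% on the C+P arrays and 0.0423% to 0.105% on the D+P arrays. In D against C, miR-199a-3p was higher (0.96, limma adjusted p = 0.0147), where 24.4% of the 209 were higher. No leukocyte, endothelial (miR-126a-3p) or smooth muscle miRNA (miR-143-3p, miR-145a-5p) passed. MiR-214-3p, undetected on all C arrays, was not in the fit. In C+P against C, miR-1a-3p (1.47), miR-199a-3p (0.90), miR-223-3p (1.10) and miR-143-3p (0.71) were higher and miR-486a-5p (-0.83) was lower. There 8.13% of the 209 were higher and 10% lower. In D+P against D, miR-199a-3p (-0.82, limma adjusted p = 0.0254), miR-223-3p (-1.15, limma adjusted p = 0.0186) and miR-1a-3p (-0.72, limma adjusted p = 0.0491) were lower. No other marker in the fit passed there, and 23.4% of the 209 were lower. The part of these cell types in the changes of miR-193 and miR-365 was not tested.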

How the data were processed

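Total RNA of 12 mouse hearts was labeled with Cy3 and hybridized to Agilent 8 x 60K miRNA arrays (miRBase 21), with 100 ng per the methods and 200 ng per the labels. The labels' extraction text speaks of macrophages, while the tissue is given as heart muscle. The authors extracted the features (Feature Extraction 10.7.3.1) and deposited for each array a 1-colour intensity, its error and a detection flag per miRNA, with undetected intensities written as 0.1 and no normalization between arrays. They also deposited normalized intensity values of 209 miRNAs, filtered on detection and normalized by cyclic loess, which were used as an alternative.

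Here the scanner intensities of the 209 miRNAs that some group detected on each of its 3 arrays were used, with undetected values at the lowest detected signal of the array. They were log2 transformed, normalized by cyclic loess (span 0.7, 3 iterations) and fitted with lmFit and eBayes over 12 arrays (limma 3.58.1, R 4.3.3), with Benjamini-Hochberg adjustment and a threshold of 0.05. MiR-365-3p was not detected on all 12 arrays and so came from the same table. The fit was tested on simulated data. Exact permutation tests were run in R 4.3.3. The miRNAs named were the 3 chosen, the other arms of their hairpins, up to 3 most like each by flags or r, and listed brown adipocyte miRNAs past the threshold; detection shares of cell type markers are also given. The members and lists were chosen with earlier results of these data known. Alternatives were other scalings and filters, other values for undetected miRNAs, the authors' values, an intensity trend, a replicate block, only the 2 groups compared, each array left out, and the t-test of the methods. No 2 arrays were identical. The number of arrays limits the precision. Messenger RNA arrays and qRT-PCR were not analysed here.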

Additional observations from a re-analysis of the deposited data

Results flagged for a closer look

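The interaction of diabetes and pargyline passed for miR-193a-3p, with a log2 difference between the effect of pargyline in diabetic and in control hearts of -1.28 (limma adjusted p = 0.00707). It passed for miR-365-3p too, at -2.29 (limma adjusted p = 0.0408). Of the 209 miRNAs, 58.9% passed this test. The call of miR-365-3p was lost in 10 of 12 fits that each left out 1 array. The value of miR-193a-3p rests on fill-in values for all C arrays, and it was -0.36 (limma adjusted p = 0.117) with undetected values at its own lowest detected signal. The difference for miR-193b-3p, at -0.84, did not pass.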

How the results depend on the processing

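In both comparisons with D (against C, and D+P against it), the direction of each of the 3 miRNAs held under every alternative run. For the miR-193 pair in D against C this is no support. All 3 C arrays held fill-in values, which, except in the authors' values, were set at or under every detected signal of these miRNAs. MiR-193b-3p also entered the main fit through D alone, so its comparisons with D there are not independent of the detection filter. Values are log2 changes with limma unless named otherwise. With 75th percentile scaling, miR-193a-3p no longer passed in D against C (0.41), D+P against D (-0.35) or the interaction (-0.88), and the relation of miR-365-3p with miR-193a-3p was r = 0.68 and that of the miR-193 pair turned to -0.16. With quantile normalization, miR-193a-3p in C+P against C turned to -0.0144, miR-193b-3p newly passed there (-0.55) and in the interaction (-0.79), and the relation of miR-365-3p with miR-193a-3p was r = 0.61. Without normalization, D+P against D no longer passed for miR-193a-3p (-0.61) or miR-193b-3p (-1.24), C+P against C passed for miR-193a-3p (1.63) and miR-365-3p (2.53) and turned to 0.53 for miR-193b-3p, and miR-365-3p passed in D against C (2.17). That setting keeps the brightness of the arrays. The values of miR-193b-3p in C+P against C, here and below, are mostly differences between fill-in values, since 5 of the 6 arrays did not detect it, so passing or not passing there says nothing about the miRNA. MiR-193a-3p was undetected on all C arrays, so its C side there is not a measurement either.

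With all 1881 miRNAs fitted, which enlarges the adjustment, no call remained: D against C was 0.83 for miR-193a-3p and 1.57 for miR-193b-3p, D+P against D -1.31 and -1.87, and the interaction -1.47 for miR-193a-3p and -2.38 for miR-365-3p. With the authors' values the call of miR-193a-3p in D+P against D remained and the others were lost, and the cause was not tested: D against C was 0.82 for miR-193a-3p and 1.13 for miR-193b-3p, D+P against D -1.31 for miR-193b-3p, and the interaction -1.01 for miR-193a-3p and -2.29 for miR-365-3p, while C+P against C turned to -1.96 for miR-193a-3p and the interaction to 5.04 for miR-193b-3p. With undetected values missing, D+P against D was -0.50 for miR-193a-3p and no longer passed, D+P against C+P turned to -0.18 for miR-193b-3p, and no comparison with C could be fitted for the miR-193 pair. With undetected values at each miRNA's own lowest detected signal, chosen after seeing the data, miR-193a-3p was 0.0764 in D against C, -0.18 in C+P against C and -0.36 in the interaction, and miR-193b-3p turned to -0.0223 in D+P against C+P. With only the 2 groups compared, miR-193a-3p was -1.18 in D+P against D and no longer passed, and miR-193b-3p passed in C+P against C (-0.99). With the methods' t-test and Benjamini-Hochberg adjustment, D+P against D no longer passed for miR-193a-3p (-1.18) or miR-193b-3p (-1.84). The methods name an adjusted Bonferroni correction, which was not used here. At 5 times the error, chosen after seeing the data, miR-193a-3p was detected on 1 array and miR-193b-3p on 3.

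Leaving out each array gave 0.67 to 0.89 for miR-193a-3p in D against C, -0.69 to -0.33 in D+P against C+P, and -1.42 to -0.71 for miR-193b-3p in C+P against C. For miR-365-3p it gave 0.78 to 2.11 in D against C, 0.64 to 1.91 in C+P against C, -1.62 to -0.58 in D+P against D and -3.09 to -1.73 in the interaction. MiR-193b-3p in C+P against C passed without C+P replicate 3 or without D+P replicate 1. The table for a miRNA detected on all 12 arrays gave no value, since none of the 3 was. An intensity trend changed no call of the 3.

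Replicate numbers are shared by the groups but do not pair the mice: deviations of same-numbered arrays correlated with r from -0.33 to 0.22, and 0 of 12 arrays correlated best with their own number. With the replicate block no call of the 3 miRNAs changed, and 86 in place of 98 of the 209 miRNAs passed in D against C, 4 in place of 38 in C+P against C, 78 in place of 100 in D+P against D and 1 in place of 12 in D+P against C+P.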

Other observations

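In the normalized values deposited by the authors, which are on another scale, miR-365-3p was highest on C replicate 2, at 31.2, and its other C arrays were at 6.44 and 1.37, the latter an undetected value. The D arrays were at 10.5, 8.91 and 20.2. MiR-193a-3p was at 1.44, 3.22 and 2.98 on the C arrays, on which it was not detected, and at 0.730, 0.617 and 0.517 on the C+P arrays, on which it was. In D it was at 1.10, 6.75 and 10.3, so D replicate 1 lay below all 3 C arrays. MiR-193b-3p was at 4.33 on D+P replicate 1, where it was not detected, and at 1.13 and 1.14 on D+P replicates 2 and 3, where it was.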
